A study of Mus musculus with 15 samples.

Results

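The BCL2 family genes described here are 10 named genes that set whether a cell keeps or loses its mitochondrial outer membrane: Mcl1, Bcl2, Bcl2l1, Bcl2a1b and Bcl2a1d, which protect it, Bak1 and Bax, which open it, and Bid, Bcl2l11 and Bbc3, which trigger the opening. They were chosen by gene symbol. Of the 10, 9 had a row among the 14801 genes of the table, and 8 passed the filter on low values and were tested among 14161 genes; Bcl2a1d was not analysed here and Bcl2a1b had too few reads to be tested. RNA was measured in 15 libraries of 5 bone marrow populations sorted from healthy mice, 3 libraries each, labelled Neutrophil, ProNeut_Neutrophil, PreNeut_Neutrophil, CD115plusGMP (granulocyte-monocyte progenitors with the receptor CD115) and CMP (common myeloid progenitors). The longer names are shortened to ProNeut and PreNeut, and no strain, sex, age, genotype or treatment is named in the labels. Nothing in them tells whether a population's 3 libraries are separate animals. The p-values thus measure the spread from library to library, which may be technical.

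In the mitochondrial pathway of apoptosis, BAX and BAK form pores in the outer membrane and release cytochrome c, which starts the caspase cascade. The prosurvival proteins hold BAX and BAK in check, and BH3-only proteins such as BIM, PUMA and BID either bind the prosurvival proteins or switch on BAX and BAK directly. Mature neutrophils are short-lived cells. In mice, granulocytes depend on MCL1, an unstable protein that must be made continually, and A1, the product of the Bcl2a1 genes, is another prosurvival protein of this lineage.

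The mouse carries several near-identical Bcl2a1 genes, and the first 90 bases of the reading frame of Bcl2a1b and Bcl2a1d (GENCODE M21 transcripts, chromosome 9, 5′ to 3′) show how little separates them, with capitals at the bases that differ.
Bcl2a1b: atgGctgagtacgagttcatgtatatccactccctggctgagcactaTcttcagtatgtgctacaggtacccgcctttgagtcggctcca
Bcl2a1d: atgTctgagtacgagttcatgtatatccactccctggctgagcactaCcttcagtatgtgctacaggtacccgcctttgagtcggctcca
The stretch has 2 differences, and the whole frame of 519 bases has 6, an identity of 98.8%. Bcl2a1a was 97.9% identical to Bcl2a1b over the frame, and Bcl2a1c 71.2%. Of the 768 windows of 50 bases in the Bcl2a1b transcript, 57.6% also occur in Bcl2a1d and 41.1% in Bcl2a1a. Reads from these copies could therefore be split or dropped in the authors' counting, and the Bcl2a1b values below are uncertain for that reason.

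The libraries form 2 sets that run with the populations. The first holds the 9 Neutrophil, CD115plusGMP and CMP libraries, with 810794 to 1444403 reads over the genes of the table, and the second the 6 ProNeut and PreNeut libraries, with 7493694 to 68171606 (PreNeut replicate 3 the deepest). Unnamed identifiers took 55.6% to 69.5% of reads in the first set, against 0.102% to 0.146% in the second. Of the reads on mitochondrial protein genes, 69.1% to 93.3% in the first set fell on ND6, alone in lying on the light strand, against 0.154% to 0.230% in second-set libraries. First-set values may therefore hold mainly reads of the opposite strand and are values for a gene's locus. Between the sets, set and population cannot be told apart, so levels were compared across sets only by rank within a library and were not tested. A gene with 0 reads had a log2 CPM (the log2 of reads scaled by library size) of -1.31 to 0.63 in first-set libraries, against -8.14 to -4.90 in second-set ones. In the mean of 3 libraries, a gene without reads differed by 1.37 between Neutrophil and CMP, 0.57 between Neutrophil and CD115plusGMP, 0.80 between CD115plusGMP and CMP and 1.19 between ProNeut and PreNeut, from the library size used for scaling alone. That size is the one the values imply and differs from the read total. It was 323151 to 624538 in Neutrophil and 865335 to 1243017 in CMP, for totals of 887982 to 1401958 and 953362 to 1444403 reads. Pooled ratios and folds below use the same size.

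Markers were checked before the members were read. The 13 neutrophil genes summed to 11000 to 37700 CPM in Neutrophil libraries, 93100 to 116000 in ProNeut, 73600 to 94900 in PreNeut, 357 to 753 in CD115plusGMP and 40.4 to 42.6 in CMP, with Prtn3 at 0 reads in Neutrophil, Mmp9 at 0 in CD115plusGMP, and Ly6g, Mmp9 and Elane at 0 in CMP. Other cell types were visible too. The 6 monocyte genes summed to 238 to 440 CPM in CD115plusGMP against 4.83 to 13.9 in CMP. They summed to 12.3 to 152 in Neutrophil, 286 to 346 in ProNeut and 298 to 337 in PreNeut. Erythroid genes, 8 of 9 with a row, summed to 0 to 9.61 CPM in Neutrophil, 3.81 to 5.64 in CD115plusGMP and 394 to 515 in CMP, and to 45.8 to 50.7 in ProNeut against 2.28 to 6.19 in PreNeut. Basophil and mast cell genes summed to 1.67 to 2.05 CPM in ProNeut against 26.2 to 30.3 in PreNeut, with Fcer1a at 0 in ProNeut. The T and NK genes with a row (3 of 6) did not move together: Nkg7 had 144 reads in ProNeut and 4401 in PreNeut (ratio of pooled, scaled reads 0.103), whereas the T cell gene Cd3d had 98 and 18 (ratio 17.1) and Cd3e 23 and 17 (ratio 4.24). The part of these cells in the member values was not tested. In sorted bulk samples, fewer cells of a type and less RNA per cell cannot be told apart.

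Members were called when the limma fit over all genes gave an adjusted p under 0.05 and a difference of at least 1 log2 unit. In Neutrophil against CMP, 3 of 8 tested members were higher (Mcl1, Bbc3 and Bcl2l1), where 26.8% of all genes were higher, and none was lower, where 17.1% were; limma put Bak1 lower at an unadjusted p under 0.05, and voom called Mcl1 and Bbc3 higher and none lower. In Neutrophil against CD115plusGMP, 2 were higher (Mcl1 and Bid; background 20.2%) and 2 lower (Bcl2 and Bak1; background 13.2%). In CD115plusGMP against CMP, 1 was higher (Bbc3; background 8.08%) and none was lower (background 4.56%); in limma Bid was lower at an unadjusted p under 0.05, and voom called Bbc3 alone. In ProNeut against PreNeut no member was called, where 2.26% of genes were; limma gave 0 members at an unadjusted p under 0.05 and voom called 0. With 8 genes these counts do not set the family apart from the background. A gene without reads can pass the threshold in Neutrophil against CMP. Mcpt8, with 0 reads in both groups, was called higher by 1.37 (limma adjusted p = 0.048). The 26.8% thus includes such a call, and calls on a few reads are to be read with the read counts given below. The median difference of the members was 0.61 in Neutrophil against CMP (0.60 over all genes), 1.07 against CD115plusGMP (0.32), 0.38 in CD115plusGMP against CMP (0.26) and -0.09 in ProNeut against PreNeut (0.07). The first 3 comparisons share libraries, so their values stand side by side and do not count as repeats of each other.

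**Figure D1:**
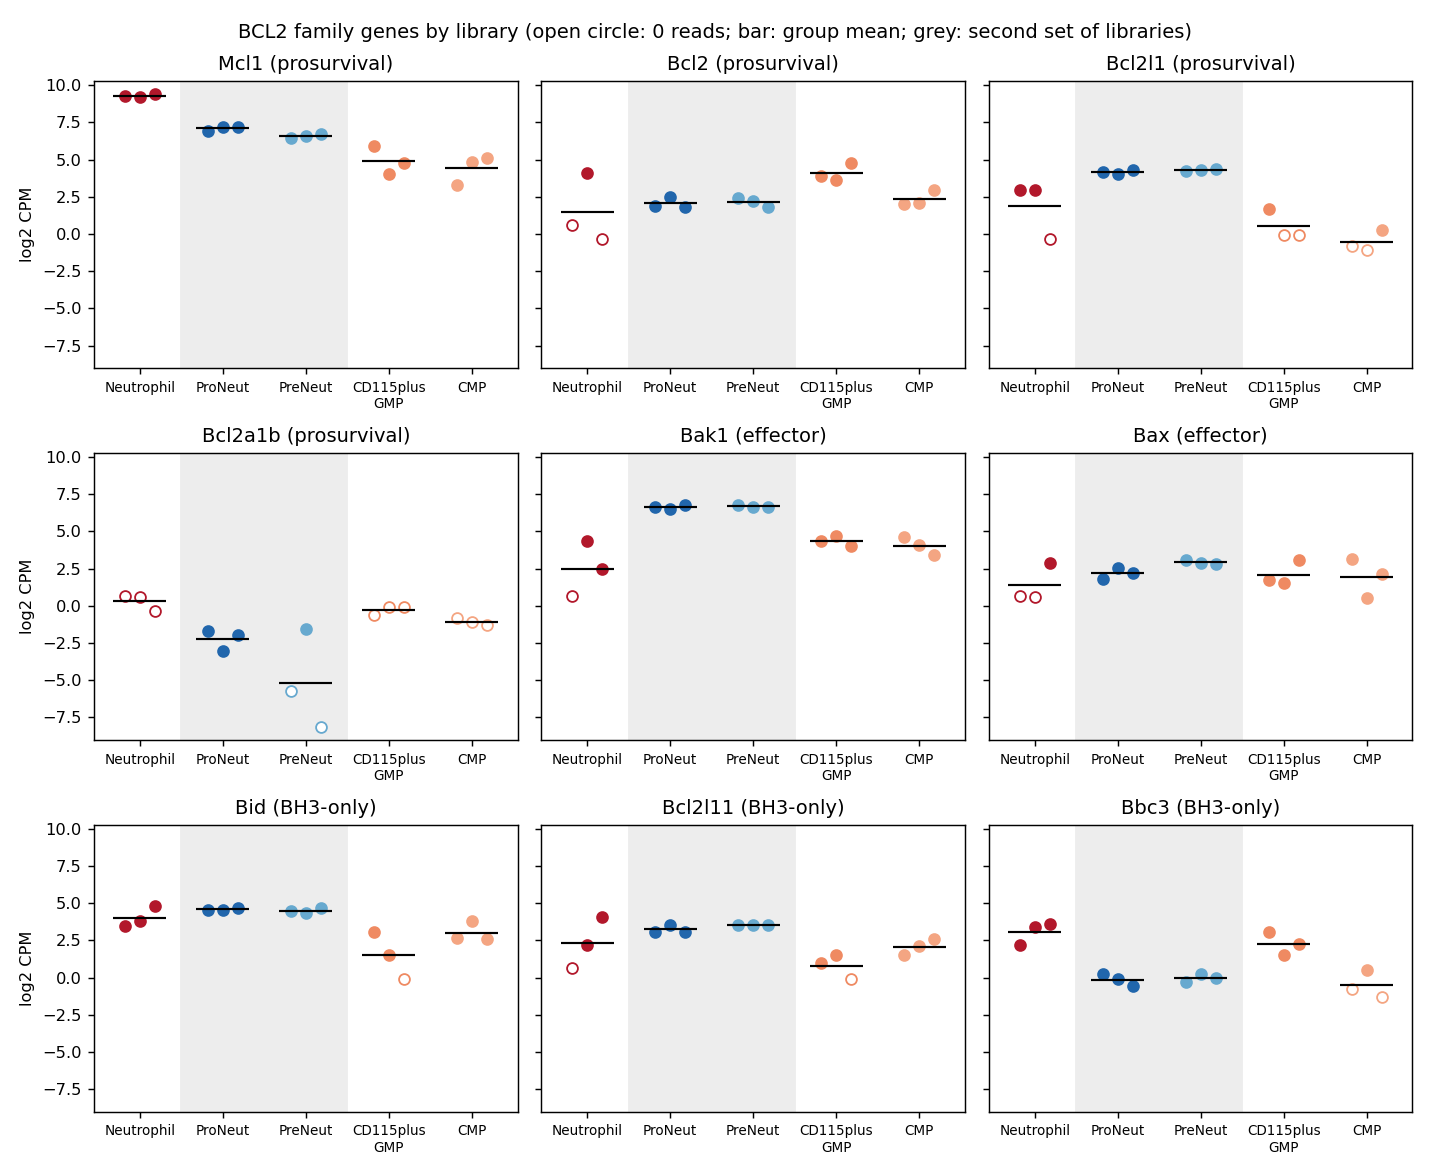
Log2 CPM (y axis) of the 9 members with a row in each of the 15 libraries, by population (x axis). Filled circles are libraries with reads, open circles libraries with 0 reads, bars the mean of 3 libraries, and the grey band marks the second set. Mcl1 lies between 9.20 and 9.40 in the 3 Neutrophil libraries, above every CD115plusGMP and CMP library, and Bcl2a1b has reads only in second-set libraries.

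Mcl1 was the member with the clearest difference (chromosome 3, 95658788 to 95663176, plus strand, GRCm38; Entrez 17210). Its log2 CPM was 9.28, 9.20 and 9.40 in Neutrophil libraries (201, 191 and 421 reads), against 5.89, 4.0 and 4.79 in CD115plusGMP (45, 8 and 14 reads) and 3.30, 4.85 and 5.13 in CMP (8, 30 and 43 reads). The 3 Neutrophil libraries lay far above both progenitor groups, which overlapped each other. Mcl1 was higher in Neutrophil than in CMP by 4.87 ± 0.45 log2 units (SE, n = 3; 95% interval 3.92 to 5.82; limma adjusted p = 2.3e-07), a ratio of pooled, scaled reads of 24.9 (95% counting interval 19.8 to 31.7). Against CD115plusGMP it was higher by 4.40 ± 0.45 (3.45 to 5.35; adjusted p = 1.4e-06), a ratio of 17.4 (13.5 to 22.7). Between CD115plusGMP and CMP the difference was 0.47 ± 0.45 (-0.49 to 1.42; adjusted p = 0.56). Such counting intervals cover counting error only, not the choice of scaling, for reads without molecular identifiers. Both Neutrophil calls held under each of the 16 alternative settings, at 3.31 to 5.87 and 2.96 to 5.05.

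Among second-set libraries Mcl1 was at 6.93, 7.19 and 7.22 in ProNeut (1827, 3072 and 3843 reads) and at 6.48, 6.59 and 6.70 in PreNeut (2420, 2442 and 14655 reads). Every ProNeut library was above every PreNeut library, by a mean of 0.53 ± 0.45 (SE; -0.43 to 1.48; limma adjusted p = 0.82), so Mcl1 was not called. The fit shares its spread with the first set. In the fit on the second set alone the same difference had an SE of 0.09 (0.33 to 0.72; adjusted p = 0.00057), and with voom weights it was 0.48 (adjusted p = 0.0013); it stayed under 1 log2 unit in each of the alternatives. By rank, Mcl1 stood above 96.5% to 97.8% of tested genes in Neutrophil, 95.7% to 97.0% in ProNeut, 94.0% to 94.9% in PreNeut, 79.4% to 90.0% in CD115plusGMP and 70.9% to 87.7% in CMP. The ranges of Neutrophil and ProNeut overlap, as do those of CD115plusGMP and CMP, and PreNeut lies between these pairs without overlap. Since set and population cannot be told apart, no order of Mcl1 between the sets is read from these ranks.

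Bcl2, the founding prosurvival gene of the family, moved the other way (chromosome 1, 106538178 to 106714274, minus strand; Entrez 12043). It had 0, 5 and 0 reads in Neutrophil (log2 CPM 0.63, 4.07 and -0.32), against 11, 6 and 14 in CD115plusGMP (3.90, 3.61 and 4.79) and 3, 4 and 9 in CMP (2.02, 2.09 and 2.93). Neutrophil replicate 2 alone had reads, and its value lay within the CD115plusGMP range. Bcl2 was lower in Neutrophil than in CD115plusGMP, by -2.64 ± 0.82 (SE, n = 3; -4.38 to -0.90; limma adjusted p = 0.019), a pooled ratio of 0.231 (0.0701 to 0.599). The call was lost with median centring (-1.99, adjusted p = 0.13), with only the 2 groups fitted (adjusted p = 0.062), and without CD115plusGMP replicate 3 (-2.30, 0.078), Neutrophil replicate 1 (-2.22, 0.071) or Neutrophil replicate 3 (-1.75, 0.10). Neutrophil replicate 2 also had the highest sum of B lymphoid genes, 88.8 CPM against 43.3 and 48.0 in replicates 1 and 3, over 4 of 7 genes with a row and with Vpreb1 at 0; without it the difference was -3.95. The part of these cells in the Bcl2 value was not tested. Bcl2 in Neutrophil against CMP differed by -0.89 ± 0.82 (-2.62 to 0.85; adjusted p = 0.41), and it was called without Neutrophil replicate 2 (-2.19, adjusted p = 0.0043) and with plain library totals (-2.25, 0.02). In CD115plusGMP against CMP the groups did not overlap, with a difference of 1.75 ± 0.82 (0.02 to 3.49; adjusted p = 0.19) and a pooled ratio of 3.36 (1.78 to 6.58). It was called with 2 reads added (1.58, adjusted p = 0.045) and with only the 2 groups fitted (adjusted p = 0.026).

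The Bcl2 locus is shared between strands. D630008O14Rik, annotated as antisense, shares 558 exon bases with Bcl2 on the opposite strand and was looked up, after the values were seen, for that reason. It had 0, 3 and 0 reads in Neutrophil, 209, 147 and 167 in CD115plusGMP and 84, 88 and 126 in CMP, but 0, 2 and 0 in ProNeut and 0 in each PreNeut library. In the second set nearly every read of the pair fell on Bcl2 (265 and 2 reads in ProNeut, 766 and 0 in PreNeut for Bcl2 and its partner), whereas in CD115plusGMP and CMP most fell on D630008O14Rik (31 and 523, and 16 and 298). D630008O14Rik was lower in Neutrophil than in CD115plusGMP by -6.93 ± 0.90 (SE; limma adjusted p = 1.6e-05) and than in CMP by -5.31 ± 0.90 (adjusted p = 0.00015). Between CD115plusGMP and CMP it differed by 1.62 ± 0.90 (adjusted p = 0.28), although the read counts of the 3 CD115plusGMP libraries all exceeded those of CMP. The split of the pair's reads thus ran in opposite directions in the second set and in these 2 groups. Which of the 2 genes the first-set reads come from was not tested, so both rows stand for the locus there. Both were lower in Neutrophil than in CD115plusGMP. In the second set Bcl2 was at 1.89, 2.5 and 1.84 in ProNeut and at 2.39, 2.23 and 1.84 in PreNeut (-0.08 ± 0.82; -1.82 to 1.66; adjusted p = 1).

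**Figure D2:**
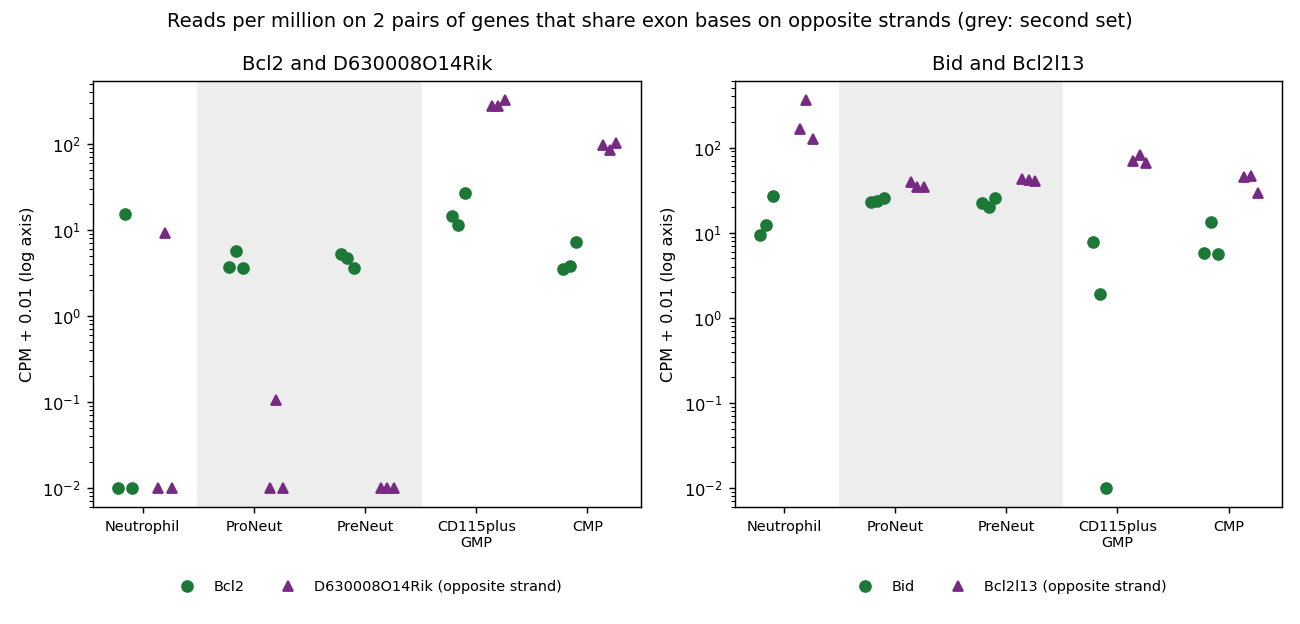
CPM (log axis, with a small constant added; points on the lowest line have 0 reads) for Bcl2 and D630008O14Rik, left, and Bid and Bcl2l13, right, in each library by population. Circles are the family members, triangles their opposite-strand partners, and grey marks the second set. D630008O14Rik lies above Bcl2 in the 6 CD115plusGMP and CMP libraries and below it in the 6 second-set libraries.

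Bcl2l1 encodes BCL-XL (chromosome 2, 152780668 to 152831728, minus strand; Entrez 12048; no annotated exon partner on the opposite strand). It had 2, 2 and 0 reads in Neutrophil, 2, 0 and 0 in CD115plusGMP and 0, 0 and 1 in CMP, so the first set holds 7 of its reads in all. The fit called it higher in Neutrophil than in CMP, by 2.39 ± 0.77 (SE; 0.76 to 4.01; limma adjusted p = 0.019), but the groups overlapped, the ratio of 4 against 1 reads was 9.93 with a counting interval of 0.983 to 489, and the call was lost under 7 of the 16 alternatives (adjusted p up to 0.26). Neutrophil against CD115plusGMP gave 1.34 ± 0.77 (-0.28 to 2.97; adjusted p = 0.21), called only without Neutrophil replicate 3 (2.43, adjusted p = 0.0042), and CD115plusGMP against CMP gave 1.05 ± 0.77 (-0.58 to 2.67; adjusted p = 0.42). The second set measured it far better. There it was at 4.14, 4.03 and 4.31 in ProNeut (263, 343 and 512 reads) and at 4.25, 4.30 and 4.39 in PreNeut (515, 501 and 2964 reads), a difference of -0.15 ± 0.77 (-1.78 to 1.47; adjusted p = 1). Its rank was 67.7% to 70.9% in ProNeut, 69.9% to 71.3% in PreNeut, 23.3% to 60.2% in Neutrophil, 18.4% to 41.4% in CD115plusGMP and 12.5% to 26.4% in CMP. The lowest first-set ranks (23.3%, 18.4% and 12.5%) are libraries with 0 reads, and 2 reads gave 60.2% in Neutrophil replicate 1. These ranks are thus not comparable across the sets.

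Bcl2a1b (chromosome 9, 89199209 to 89207827, plus strand; Entrez 12045) had 4, 2 and 6 reads in ProNeut and 0, 8 and 0 in PreNeut, and 0 in each of the 9 first-set libraries. These counts are small for libraries of this depth, and PreNeut replicate 2 had more than any ProNeut library. A count of 0 allows up to 3 reads in a library. With the near-identical copies shown above, the level of A1 as a whole is not given by this row.

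Bak1 and Bax, the pore-forming pair, are given first in the second set. Bak1 (chromosome 17, 27019810 to 27029009, minus strand; Entrez 12018) was at 6.66, 6.52 and 6.76 in ProNeut (1510, 1922 and 2798 reads) and at 6.77, 6.61 and 6.64 in PreNeut (2966, 2486 and 14097 reads). The groups overlapped, with a difference of -0.03 ± 0.64 (SE; -1.39 to 1.33; limma adjusted p = 1); in the fit on the second set alone the interval was -0.21 to 0.15. Bax (chromosome 7, 45461697 to 45466898, minus strand; Entrez 12028) was at 1.81, 2.51 and 2.21 in ProNeut (52, 119 and 119 reads) and at 3.05, 2.90 and 2.78 in PreNeut (224, 189 and 968 reads). Each ProNeut library was below each PreNeut library, by a mean of -0.73 ± 0.72 (-2.25 to 0.79; adjusted p = 0.90), and Bax was not called. Fitted on the second set alone the interval was -1.21 to -0.26 (adjusted p = 0.027), with voom weights the difference was -0.64 (adjusted p = 0.23), and the pooled ratio was 0.659 (0.578 to 0.748). Mcl1 and Bax were the 2 of 8 tested members whose ProNeut and PreNeut libraries did not overlap, where 36.0% of all genes did not.

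In the first set Bak1 had 0, 6 and 3 reads in Neutrophil (0.63, 4.32 and 2.49), against 15, 13 and 8 in CD115plusGMP (4.33, 4.67 and 4.02) and 21, 17 and 13 in CMP (4.63, 4.05 and 3.44). Neutrophil replicate 2 lay within the range of both progenitor groups and the other two below. Bak1 was lower in Neutrophil than in CD115plusGMP by -1.86 ± 0.64 (SE, n = 3; -3.23 to -0.50; limma adjusted p = 0.034), a pooled ratio of 0.358 (0.152 to 0.758). The call depended on the setting: 9 of the 16 alternatives did not make it, at adjusted p = 0.051 to 0.20, among them median centring (-1.21) and each fit that left out 1 library except that without Neutrophil replicate 2 (-2.78). It was -0.94 without Neutrophil replicate 1. Bak1 in Neutrophil against CMP differed by -1.56 ± 0.64 (-2.93 to -0.20; adjusted p = 0.059) and was not called. It was called under 4 of the 16 alternatives: plain library totals (-2.93, 0.00079), quantile normalization (-2.57, 0.0089), the filter at log2 CPM 2 (-1.56, 0.049) and without Neutrophil replicate 2 (-2.48, 0.00074). In CD115plusGMP against CMP it differed by 0.30 ± 0.64 (adjusted p = 0.82). Ggnbp1, which shares 614 exon bases with Bak1 on the opposite strand, had 2 reads in Neutrophil, 95 in ProNeut, 163 in PreNeut, 2 in CD115plusGMP and 1 in CMP.

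Bax had 0, 0 and 4 reads in Neutrophil, 2, 1 and 4 in CD115plusGMP and 7, 1 and 5 in CMP, and the 3 groups overlapped. Its differences were -0.56 ± 0.72 in Neutrophil against CMP (SE; -2.08 to 0.96; limma adjusted p = 0.56), -0.73 ± 0.72 in Neutrophil against CD115plusGMP (-2.26 to 0.79; adjusted p = 0.51) and 0.18 ± 0.72 in CD115plusGMP against CMP (-1.35 to 1.70; adjusted p = 0.91). Bax was called in none of these comparisons, and the intervals leave room for differences of over 1 log2 unit in either direction in CD115plusGMP against CMP and downwards in the Neutrophil comparisons.

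Bid links death receptors to mitochondria, since caspase-8 cuts its product into an active fragment (chromosome 6, 120891930 to 120916853, minus strand; Entrez 12122). It had 3, 4 and 17 reads in Neutrophil (3.44, 3.79 and 4.81), against 6, 1 and 0 in CD115plusGMP (3.08, 1.5 and -0.07) and 5, 14 and 7 in CMP (2.67, 3.78 and 2.59). Neutrophil libraries were all above CD115plusGMP and overlapped CMP. Bid was higher in Neutrophil than in CD115plusGMP by 2.51 ± 0.65 (SE, n = 3; 1.13 to 3.88; limma adjusted p = 0.0061), a pooled ratio of 4.91 (2.05 to 13.5); the call was lost with plain library totals (1.70, adjusted p = 0.064) and with only the 2 groups fitted (adjusted p = 0.065). Against CMP the difference was 1.0 ± 0.65 (-0.38 to 2.37; adjusted p = 0.23), called with median centring (2.0, 0.0087) and with 2 reads added (1.10, 0.028) and turned to -0.37 with plain library totals. In CD115plusGMP against CMP it was -1.51 ± 0.65 (-2.89 to -0.14; adjusted p = 0.15), called only without CD115plusGMP replicate 1 (-2.30, adjusted p = 0.018). Bid in the second set was at 4.51, 4.57 and 4.69 in ProNeut and 4.47, 4.33 and 4.67 in PreNeut, with overlap (0.10 ± 0.65; -1.27 to 1.48; adjusted p = 1).

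Bid also has a partner on the other strand: Bcl2l13, itself a BCL2-related gene of the mitochondrial outer membrane, shares 628 exon bases with it. Bcl2l13 had 54, 117 and 78 reads in Neutrophil, 54, 43 and 35 in CD115plusGMP and 39, 49 and 36 in CMP. It was higher in Neutrophil than in CMP by 2.31 ± 0.35 (SE; limma adjusted p = 4.5e-05) and than in CD115plusGMP by 1.43 ± 0.35 (adjusted p = 0.0039). In Neutrophil against CD115plusGMP both genes of the pair were thus higher, and their reads were not separated here. In the second set the pair was closer in level, with 1505 reads on Bid and 2190 on Bcl2l13 in ProNeut and 4700 and 7935 in PreNeut.

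Bcl2l11 encodes BIM, a BH3-only protein held back by cytokine signals (chromosome 2, 128126038 to 128162547, plus strand; Entrez 12125). It had 0, 1 and 10 reads in Neutrophil (0.63, 2.20 and 4.07), 1, 1 and 0 in CD115plusGMP (0.96, 1.5 and -0.07) and 2, 4 and 7 in CMP (1.53, 2.09 and 2.59). The Neutrophil libraries spread across both progenitor groups. None of the first-set comparisons called it in limma: 0.23 ± 0.69 in Neutrophil against CMP (SE; -1.25 to 1.70; adjusted p = 0.81), 1.5 ± 0.69 in Neutrophil against CD115plusGMP (0.03 to 2.98; adjusted p = 0.12) and -1.27 ± 0.69 in CD115plusGMP against CMP (-2.75 to 0.20; adjusted p = 0.27). In Neutrophil against CD115plusGMP it was called with median centring (2.15, adjusted p = 0.012), with 2 reads added (1.23, 0.018) and without Neutrophil replicate 1 (2.34, 0.0077). ProNeut libraries were at 3.09, 3.53 and 3.09 (127, 241 and 220 reads) and PreNeut at 3.54, 3.51 and 3.53 (314, 288 and 1636 reads). The PreNeut values lay within a narrow band that ProNeut replicate 2 reached and the other two ProNeut libraries did not (-0.29 ± 0.69; -1.76 to 1.19; adjusted p = 1).

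Bbc3 encodes PUMA, a BH3-only protein induced by p53 (chromosome 7, 16308393 to 16318205, plus strand; Entrez 170770). It had 1, 3 and 7 reads in Neutrophil (2.21, 3.42 and 3.59), against 6, 1 and 2 in CD115plusGMP (3.08, 1.5 and 2.25) and 0, 1 and 0 in CMP (-0.79, 0.51 and -1.31). Each Neutrophil and each CD115plusGMP library had reads, and both groups lay above CMP without overlap. Bbc3 was higher in Neutrophil than in CMP by 3.61 ± 0.60 (SE, n = 3; 2.33 to 4.89; limma adjusted p = 0.00013), a pooled ratio of 27.3 (3.97 to 1180). It was higher in CD115plusGMP than in CMP by 2.81 ± 0.60 (1.53 to 4.09; adjusted p = 0.0049), a ratio of 15.6 (2.16 to 684). Both calls held under each of the 16 alternatives (2.24 to 4.61, and 1.80 to 3.86 with adjusted p up to 0.047), but each rests on 1 read in CMP. Neutrophil against CD115plusGMP differed by 0.80 ± 0.60 (-0.48 to 2.08; adjusted p = 0.37), with overlap. In the second set Bbc3 was at 0.23, -0.11 and -0.56 in ProNeut (17, 19 and 17 reads) and at -0.33, 0.26 and -0.05 in PreNeut (21, 30 and 136 reads), with overlap (-0.11 ± 0.60; -1.39 to 1.17; adjusted p = 1). Its rank was 56.2% to 63.8% in Neutrophil, 28.2% to 32.9% in ProNeut, 29.5% to 33.2% in PreNeut, 45.3% to 63.1% in CD115plusGMP and 10.7% to 30.2% in CMP. A single read gave 56.2% in Neutrophil replicate 1, whereas 136 reads gave 31.1% in PreNeut replicate 3. Ranks that rest on a few reads are thus not comparable across the sets, and no order of Bbc3 between the sets is read from them.

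**Figure D3:**
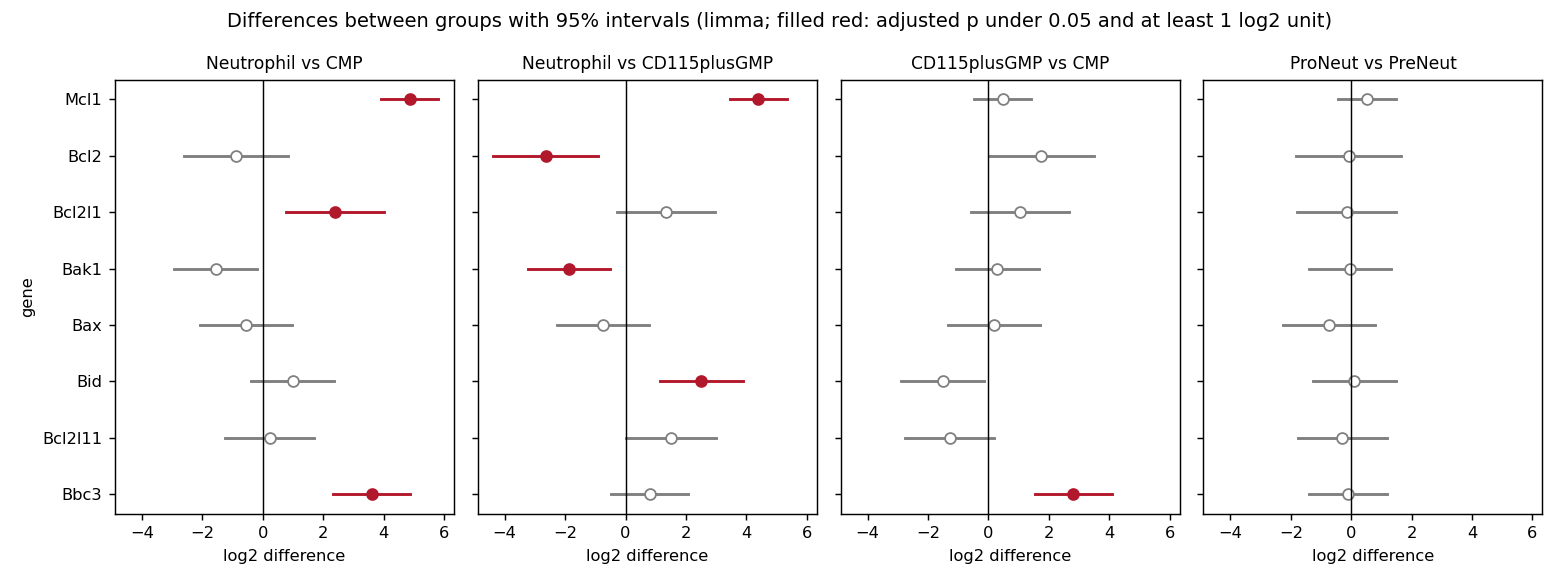
Log2 difference (x axis) of the 8 tested members (y axis) in the 4 comparisons, with 95% intervals from the limma fit over 15 libraries. Red points were called, and grey open points were not. Mcl1 lies at 4.87 and 4.40 in the Neutrophil comparisons, and none of the ProNeut against PreNeut points was called.

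To rank the members against each other by level, values were set per length, as the log2 of CPM per kilobase of annotated exon, in the second set. There the effector Bak1 and the prosurvival Mcl1 led the family: Bak1 averaged 5.38 ± 0.12 in ProNeut and 5.41 ± 0.09 in PreNeut (SD, n = 3 each), and Mcl1 averaged 5.34 ± 0.16 in ProNeut and 4.82 ± 0.11 in PreNeut. In ProNeut the 2 genes overlapped, and in PreNeut each Bak1 value (5.34 to 5.50) was above each Mcl1 value (4.71 to 4.93). Bid followed at 2.76 ± 0.09 in ProNeut and 2.66 ± 0.17 in PreNeut. The next places changed between the groups, since Bcl2l1 (1.96 ± 0.14) was above Bax (1.52 ± 0.35) in ProNeut with overlap, and Bax (2.25 ± 0.14) and Bcl2l1 (2.12 ± 0.07) overlapped in PreNeut. Bcl2l11 was at 0.23 ± 0.25 in ProNeut and 0.52 ± 0.02 in PreNeut. Bcl2 (-1.12 ± 0.37 in ProNeut and -1.04 ± 0.28 in PreNeut) and Bbc3 (-1.23 ± 0.40 and -1.13 ± 0.30) were low and overlapped each other, and Bcl2a1b was lowest on average.

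**Figure D4:**
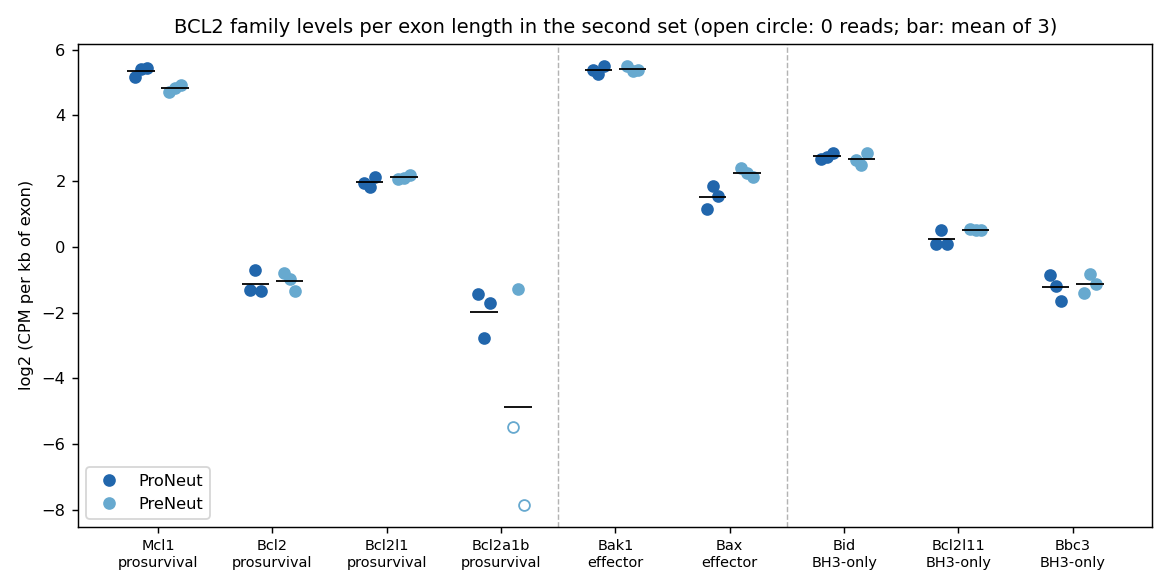
Log2 of CPM per kilobase of exon (y axis) for 9 members, ordered by role (x axis), in the 6 second-set libraries; bars are means of 3, and open circles libraries with 0 reads. Bak1 and Mcl1 lie between 4.71 and 5.50 in both groups, and Bax is lower in ProNeut than in PreNeut without overlap.

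Differences between members within a library cancel the scaling of that library. They are not per length, so only their change between groups is read, as a description. Mcl1 minus Bax, as log2 CPM, was 5.12, 4.68 and 5.01 in ProNeut and 3.43, 3.69 and 3.92 in PreNeut (means 4.94 ± 0.23 and 3.68 ± 0.24, SD). Mcl1 was higher and Bax lower in every ProNeut library than in every PreNeut library. This difference thus had to lie without overlap and adds nothing to the values of the 2 genes. Mcl1 minus Bcl2l1 was 2.95 ± 0.19 in ProNeut and 2.27 ± 0.04 in PreNeut, and Mcl1 minus Bcl2l11 was 3.88 ± 0.23 in ProNeut and 3.06 ± 0.11 in PreNeut, again without overlap. Mcl1 minus Bcl2 was 5.04, 4.70 and 5.38 in ProNeut and 4.09, 4.35 and 4.86 in PreNeut, with overlap. Of all tested genes taken singly, 36.0% did not overlap between the 2 groups, and no such share was taken for differences of pairs. Mcl1 is common to these differences, so they are not separate observations. Bak1 minus Bax was 4.85, 4.01 and 4.55 in ProNeut and 3.72, 3.71 and 3.86 in PreNeut. In the first set Mcl1 minus Bcl2 was 8.65, 5.12 and 9.72 in Neutrophil, 1.98, 0.39 and 0.00 in CD115plusGMP and 1.28, 2.76 and 2.20 in CMP. The Neutrophil libraries stood apart from both progenitor groups, and the largest of these values come from the libraries with 0 Bcl2 reads.

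The rest of the pathway was read from lists of 67 genes in all, of which 59 were tested. In Neutrophil against CMP 24 were higher and 7 lower (over all genes 26.8% and 17.1%), in Neutrophil against CD115plusGMP 22 were higher and 1 lower (20.2% and 13.2%), in CD115plusGMP against CMP 6 were higher and 2 lower (8.08% and 4.56%), and in ProNeut against PreNeut limma called 0 (2 at an unadjusted p under 0.05, and 3 called by voom). The same all-gene shares stand behind each list's counts below. Of 13 upstream cytokine signalling genes, 9 were higher in Neutrophil than in CMP (26.8% of all genes) and 9 than in CD115plusGMP (20.2%), with list medians of 2.33 and 2.94 against 0.60 and 0.32 over all genes. Csf3r, the receptor for the neutrophil growth factor G-CSF, had 685 reads in Neutrophil, 9 in CD115plusGMP and 3 in CMP and was higher by 7.36 ± 0.80 and 8.28 ± 0.80 (SE). Csf2rb, the shared receptor chain of GM-CSF and interleukin-3, had 112 reads in Neutrophil and 0 in CMP, at least 92.7-fold higher with the floor of 3 reads over the group. The kinase gene Pim1 (2.98 ± 0.46 against CD115plusGMP and 5.74 ± 0.46 against CMP) and the transcription factor gene Stat3 (3.58 ± 0.55 and 4.68 ± 0.55) were higher too.

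Of 7 caspase and apoptosome genes, 2 were higher and 2 lower in Neutrophil against CMP, shares near the 26.8% and 17.1% of all genes, and 2 were higher against CD115plusGMP (20.2%), so the counts do not set the list apart. Casp9, the initiator caspase of the apoptosome, was higher in Neutrophil by 2.86 ± 0.62 (SE) against CD115plusGMP and by 3.41 ± 0.62 against CMP. In CD115plusGMP against CMP, Apaf1, the scaffold of the apoptosome, was higher by 2.47 ± 0.60 (limma adjusted p = 0.012). In the death receptor arm, 4 of 8 genes were higher and 2 lower in Neutrophil against CMP (26.8% and 17.1% of all genes), and 4 were higher and 1 lower against CD115plusGMP (20.2% and 13.2%). Tnfrsf1a, a tumour necrosis factor receptor, had 96 reads in Neutrophil and 0 in CMP, at least 79.5-fold higher, and Fas had 25 and 0, at least 20.7-fold higher. Cflar, an inhibitor of caspase-8 activation, was higher by 2.45 ± 0.43 against CD115plusGMP and 3.61 ± 0.43 against CMP, and Casp8 itself had 0 reads in Neutrophil, at least 6.28-fold lower than in CD115plusGMP (27 reads) and at least 3.49-fold lower than in CMP (26 reads).

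Among 5 other BH3-only and related genes tested of 7, 4 were higher in Neutrophil than in CMP (26.8% of all genes) and 2 than in CD115plusGMP (20.2%), and none was lower (17.1% and 13.2%). Pmaip1, which encodes the MCL1-binding protein NOXA, had 46 reads in Neutrophil, 2 in CD115plusGMP and 3 in CMP, pooled ratios of 33.0 (8.62 to 280) and 38.1 (12.2 to 191). Bmf had 10 reads in Neutrophil and 0 in CMP, at least 8.28-fold higher, Bnip3l was higher than in CMP by 1.47 ± 0.47 (SE), and Bad by 1.78 ± 0.36. Of 8 genes that act on MCL1 stability, Gsk3b, whose product marks MCL1 for destruction, was higher in Neutrophil than in CMP by 2.01 ± 0.52. The ubiquitin ligase genes Huwe1 and Btrc were lower than in CMP, by -2.55 ± 0.74 and -1.65 ± 0.61, and the ligase gene Trim17 was higher than in CD115plusGMP, by 2.46 ± 0.78. The Trim17 call was lost under some alternatives (limma adjusted p up to 0.13). Trim17 had 53 reads in Neutrophil, 15 in CD115plusGMP and 73 in CMP, but 1 in ProNeut and 0 in PreNeut, the deeper set. Whether its first-set reads come from Trim17 itself was not tested. For Huwe1 and Btrc the Neutrophil and CMP libraries overlapped. Huwe1 had 23 reads in Neutrophil and 117 in CMP (pooled ratio 0.488, 0.298 to 0.768), and Btrc 4 and 26 (0.382, 0.0969 to 1.1). Of 6 caspase inhibitor and antagonist genes tested, Birc3 (3.85 ± 0.75) and Xiap (1.07 ± 0.40) were higher in Neutrophil than in CMP. Of 7 p53 and FOXO genes tested, Mdm2, which encodes the ubiquitin ligase of p53, was higher than in CMP by 2.16 ± 0.37 and Trp53 lower by -2.07 ± 0.59. The other prosurvival genes, 2 of 5 tested, were not called in any of the 4 comparisons. Of 49 called differences of these genes and the strand partners, 29 held under every alternative run. Among those lost under 5 or more were Ggnbp1, Bnip3l, Btrc and Xiap in Neutrophil against CMP (Xiap was -0.30 with plain library totals), Pmaip1 in Neutrophil against CD115plusGMP, and Bad and Btrc in CD115plusGMP against CMP. Each of these values is subject to the strand limit of the first set.

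For 3 members the most similar genes over the 6 second-set libraries were taken by Pearson r of log2 CPM among 6208 genes, as a description. These libraries fall into 2 groups and differ in depth, from 7493694 to 68171606 reads. Mcl1 was most like Rb1cc1 (r = 0.996), Cdc14a (0.992) and Arhgap15 (0.991). Rb1cc1 was at 4.96, 5.18 and 5.21 in ProNeut and 4.65, 4.72 and 4.84 in PreNeut, the same order of libraries as Mcl1. Bcl2 was most like Pigq (0.970), Tmed8 (0.935) and Fbxo34 (0.927), and Bcl2l11 was most like Stx12 (0.979), Nupl1 (0.977) and Zcwpw1 (0.958).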

How the data were processed

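The authors deposited log2 CPM values for 14801 genes by Entrez identifier, and each value equals the log2 of whole reads plus 0.5, scaled by library size (100% of values, tolerance 0.001 reads), so that reads could be recovered. Libraries were made with the Universal Plus mRNA-Seq kit, per the labels' protocols. The tools named in the submitters' processing notes are edgeR 1.30.5, FastQC 0.11.7 and featureCounts 1.22.2, and the genome build is GRCm38 (mm10). Aligner, strand setting and gene annotation: not given in the sources used here.

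Groups and replicate numbers came from the sample labels. Genes were tested where 3 or more of the 15 libraries exceeded a log2 CPM of 0. The test was limma 3.58.1 in R 4.3.3 (group means over all libraries, contrasts, eBayes with trend, 2-sided), with Benjamini-Hochberg adjustment over all genes tested, and a call needed an adjusted p under 0.05 with a difference of 1 log2 unit or more. The test was tried on simulated data first. The plan named a count-based test for raw counts; the table holds log2 values, so limma was used, and voom on the recovered reads was an alternative. Other alternatives were median centring, quantile normalization, plain library totals, 2 reads added, no filter, a filter at log2 CPM 2, fits on fewer libraries, a replicate block, and leaving out each library. Replicates differed by more than sampling noise (chi-square per degree of freedom 2.1 to 24.4).

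Pooled ratios use recovered reads scaled by the library size that the values imply, with 95% exact binomial counting intervals. Against 0 reads a floor of 3 reads over the group gives a bound. Rank percentiles are among tested genes of a library. Coordinates, exon lengths, strand partners and transcript sequences came from GENCODE M21 (GRCm38). Named genes are the members and, of each pathway list, at most 4 called genes with the largest differences. A few genes that this rule or the marker lists name are not reported here. The members and lists were chosen with earlier results of these data known.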

Additional observations from a re-analysis of the deposited data

How the results depend on the processing

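Over the 16 alternatives of each comparison, member differences kept direction and side of the threshold in 445 cases, lost a call in 23, gained one in 15 and changed sign in 29, each of the last an uncalled value. Members called in CD115plusGMP against CMP (1) were 2 with 2 reads added, 2 with only the 2 groups fitted, and 1 to 2 with 1 library left out; in Neutrophil against CD115plusGMP (4) they were 1 with only the 2 groups fitted and 2 to 4 with 1 library left out; in Neutrophil against CMP (3) 2 to 4. Over all genes, CD115plusGMP against CMP gave 2795 calls with quantile normalization (against 1790), and ProNeut against PreNeut (320) gave 186 with median centring, 121 with quantile normalization, 607 with 2 reads added, 903 with only the 2 groups or the second set fitted, 1363 with voom, and 195 to 405 with 1 library left out; the cause was not tested. With 2 reads added, or with quantile normalization or plain totals, 13 pathway genes were called in CD115plusGMP against CMP in place of 8 (4 higher and 9 lower with plain totals). Sign changes were, in Neutrophil against CMP, Bcl2 (0.12 with median centring, 0.18 with 2 reads added, -2.19 to 0.01 with 1 library left out), Bax (0.44, 0.38, and -1.30 to 0.04), Bcl2l11 (-0.20 with quantile normalization, -1.13 with plain totals, and -0.66 to 1.06), and, with plain totals, Bid (-0.37) and Xiap (-0.30). In Neutrophil against CD115plusGMP they were Bbc3 (-0.01 with plain totals) and Bax (0.04 with 2 reads added). In CD115plusGMP against CMP, plain totals gave Bak1 -0.26, Mcl1 -0.09 and Bax -0.38, and leaving out 1 library gave -0.10 to 0.91 for Mcl1 and -0.53 to 0.77 for Bax. In ProNeut against PreNeut, Bak1 was 0.02 with median centring (-0.09 to 0.03 with 1 library left out), Bcl2 0.06 with voom (-0.29 to 0.04), and Bbc3 -0.29 to 0.10. Scaling moved the median of all genes in Neutrophil against CMP to 1.6 with median centring, 0.18 with quantile normalization and -0.77 with plain totals (0.60 as reported), with 5534 genes higher and 1116 lower, 3636 and 3491, and 1923 and 4652 (3792 and 2420). For CD115plusGMP against CMP the medians were 0.61, -0.05 and -0.30 (0.26), with 1291 and 302, 1493 and 1302, and 696 and 1383 (1144 and 646). For Neutrophil against CD115plusGMP they were 0.97, 0.25 and -0.49 (0.32), with 3758 and 1024, 2699 and 2667, and 1799 and 3121 (2861 and 1865). In ProNeut against PreNeut quantile normalization gave 76 higher and 45 lower (261 and 59). The labels share replicate numbers, and the deviations of same-numbered libraries had correlations of -0.0528 to 0.145. In ProNeut against PreNeut all 3 were positive (0.0827, 0.0544 and 0.145). With 3 libraries a group these low values cannot decide whether the numbers pair the libraries, and the main fit did not pair them. With the replicate block the members called were 3, 4, 1 and 0 in the order Neutrophil against CMP, Neutrophil against CD115plusGMP, CD115plusGMP against CMP, ProNeut against PreNeut, and all genes called were 6106, 4712, 1680 and 285. Depth limits the first set, where Bcl2l1, Bcl2l11, Bax and Bbc3 rest on a few reads, as do Bcl2 and Bak1 in Neutrophil and Bid in CD115plusGMP.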
